A study of Mus musculus with 7 samples.

Results

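The miRNAs described here are both arms of 4 hairpins, miR-142a, miR-223, miR-150 and miR-342, listed by name because blood cells are their main source. They are 8 of the 1966 mature miRNAs counted in small RNA libraries of mouse liver, and they are picked out by name, not by a cut-off on their levels. Each library came from hepatocytes freed by collagenase perfusion of the liver and pelleted at low speed, a step that enriches the large hepatocytes over blood cells and the other small cells of the liver. ALAS12-KO hepatocytes, described as mutant for ALAS1/2, gave 4 libraries, and WT hepatocytes gave 3. The labels attach the treatment TMX to both genotypes and do not spell it out, nor do they name the alleles or what drives the deletion. ALAS is 5-aminolevulinate synthase, which starts heme synthesis, and the study asked what it does in small RNA regulation. Libraries held 10093244 to 17091539 miRNA reads in ALAS12-KO and 7719180 to 21962191 in WT. Whether each replicate is its own mouse is not stated, and p-values therefore cover the spread among these libraries, some of which may be technical. The prefix mmu- of the miRNA names is left out below except where an arm's levels are first given.

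miRNAs guide Argonaute proteins to messenger RNAs, mostly through the seed near their 5′ end, and the bound messenger RNA is repressed. miR-142 is made in nearly all cells of blood origin, so it serves as a pan-leukocyte signal, which in liver includes resident Kupffer macrophages and passing blood cells. miR-223 is induced in myeloid cells by the factors PU.1 and C/EBP and is abundant in neutrophils and monocytes. miR-150 is a miRNA of mature B, T and NK cells and represses the transcription factor Myb, and miR-342 is likewise plentiful in lymphocytes, though not restricted to them.

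The seeds are shown because they define which targets each arm can reach. They do not tell whether reads of another miRNA were counted to a listed arm, which was not tested. The sequences are those of RefSeq on GRCm38.p6, 5′ to 3′, with the seed (bases 2 to 8) in capitals, for the 7 of 8 arms that matched. miR-150-5p is named only.
miR-142a-3p: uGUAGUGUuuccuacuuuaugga
miR-142a-5p: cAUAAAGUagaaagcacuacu
miR-223-3p: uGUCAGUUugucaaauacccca
miR-223-5p: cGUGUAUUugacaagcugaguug
miR-342-3p: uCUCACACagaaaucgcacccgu
miR-342-5p: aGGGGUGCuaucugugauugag
miR-150-3p: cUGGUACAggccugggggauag
The 7 seeds were all different, and no other entry among the 1679 mature sequences of that table shared any of them. The 7 arms are 21 to 23 bases long, and read counts were compared between them without a length correction. How well each sequence is captured in a library was not tested, so comparisons between arms are of read counts, not of molecules. GC content ran from 33.3% in miR-142a-5p to 63.6% in miR-150-3p.

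The hairpins lie on 4 chromosomes (GENCODE M21, GRCm38), all on the plus strand. Mir142 is at chr11:87756864-87756927, inside the noncoding Mir142hg but outside its annotated exons. Mir223 is at chrX:96242817-96242926, inside an exon of the noncoding F630028O10Rik. Mir342 is at chr12:108658620-108658718, inside but outside the exons of Evl, a gene for an actin regulator. Mir150 is at chr7:45121757-45121821 and overlaps no other annotated gene. Mir142 is the 1 locus with an antisense partner, Mir142b, whose mature miRNA covers 20 bases of miR-142a-3p on the other strand. The Mir142 hairpin and that partner are shown to make the overlap visible. Capitals mark the 5p and then the 3p arm in the hairpin, and the seed in miR-142b.
Mir142: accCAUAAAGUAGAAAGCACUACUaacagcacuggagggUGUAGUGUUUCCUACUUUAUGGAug
miR-142b: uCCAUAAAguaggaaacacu
miR-142b had 1 or 2 reads in every library, against 19465 to 90993 for miR-142a-3p over the same bases, so nearly all reads there were counted to the plus strand.

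ALAS12-KO replicate 1 was the lowest library for these arms, though no measure passed a test for a single outlying sample. The 8 arms together took 0.23% of its miRNA reads, while ALAS12-KO replicates 2 to 4 had 0.499% to 0.740% and WT had 0.588% to 0.778%. It held the lowest level of the 7 libraries for each of the 8 arms. The share of all miRNAs at their lowest in it was not counted, so this is not shown to be particular to these arms. Dixon's test within the 4 ALAS12-KO libraries put 0 of 17 measures past its critical value at 95%, and the largest gap among the levels was 0.719 of the range. Markers of other cells that hepatocyte pellets can carry were low in ALAS12-KO replicate 1 too. Both endothelial markers, all 5 mesenchymal and stellate markers, 4 of 5 cholangiocyte markers and 2 of 4 red cell markers were at their lowest of all libraries. None of the 7 hepatocyte markers was at its lowest there. The endothelial markers are both arms of miR-126a. The mesenchymal and stellate ones are miR-143-3p, miR-145a-5p, both arms of miR-199a and miR-214-3p. The red cell ones are miR-451a, both arms of miR-144 and miR-486a-5p. Arms of 1 hairpin are not independent markers. Endothelial markers summed to 10959 CPM (reads per 1000000 summed miRNA reads) in ALAS12-KO replicate 1, to 25490 to 36485 CPM in ALAS12-KO replicates 2 to 4, and to 35562 to 52472 CPM in WT. Fold changes, ratios and summed levels of these arms, and the profile distances, are therefore also given without ALAS12-KO replicate 1. It was singled out as the lowest, so leaving it out must raise the ALAS12-KO mean CPM of each arm. Those values describe its weight and are not an independent check. In bulk libraries, fewer cells of a type and less RNA per cell cannot be told apart.

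**Figure D1:**
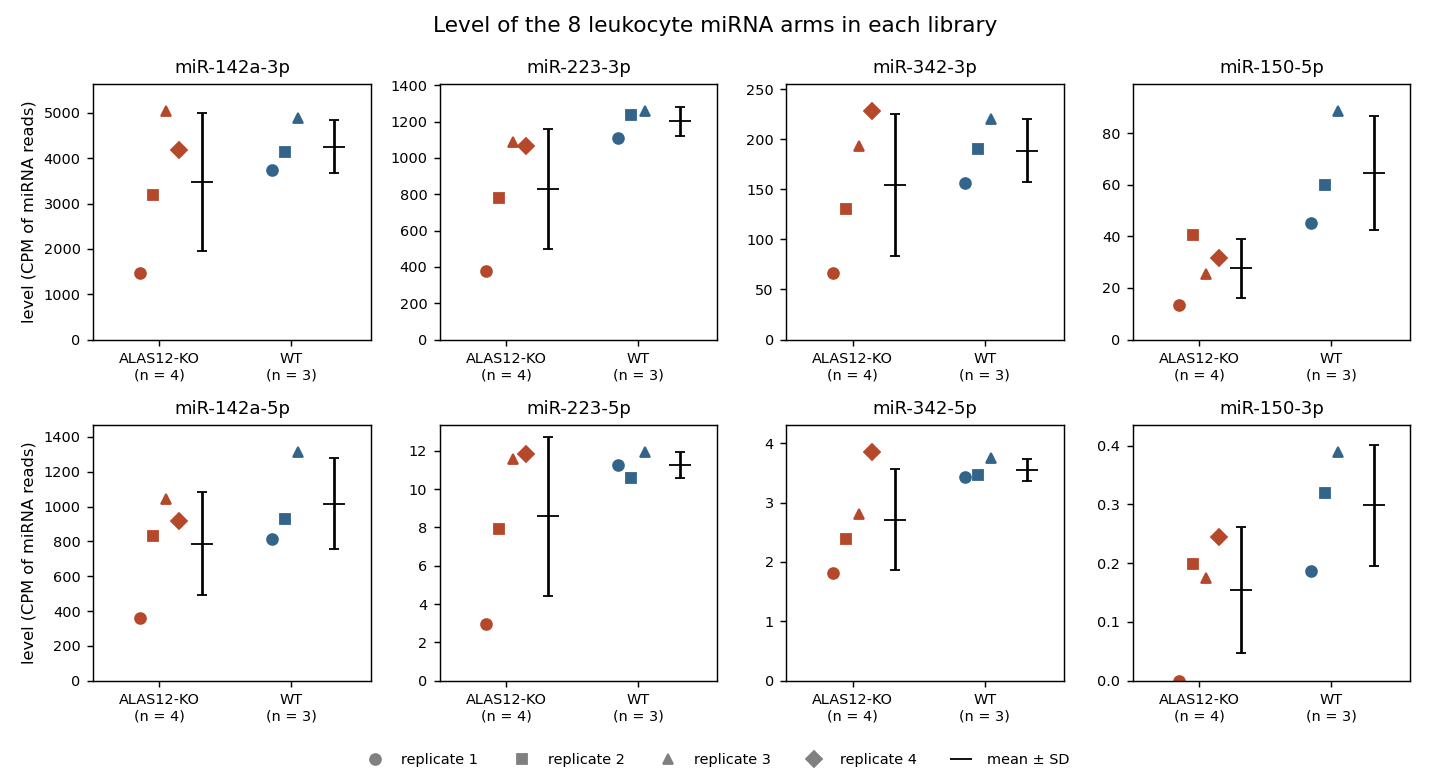
Level of each of the 8 arms in CPM (vertical axes, linear, from 0), by genotype, with 1 point per library, the replicate given by the marker shape, and the mean ± SD beside the points. ALAS12-KO replicate 1 is the lowest point in every panel, and the genotypes do not overlap for miR-223-3p and miR-150-5p.

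Levels differed widely between the arms. miR-142a-3p ranked 23rd to 33rd of the 1966 miRNAs in each library and miR-150-3p at best 485th. In mean CPM the order was miR-142a-3p, miR-223-3p, miR-142a-5p, miR-342-3p, miR-150-5p, miR-223-5p, miR-342-5p and miR-150-3p. Neighbours kept this order in 7 of 7 libraries, except that miR-223-3p was above miR-142a-5p in only 5 of 7, with ratios of 0.94 to 1.37, so the order of these arms was not fixed. The pan-leukocyte signal, both arms of miR-142a, was 4261 ± 1821 CPM (SD, n = 4) in ALAS12-KO and 5272 ± 840 CPM (SD, n = 3) in WT. The myeloid signal, both arms of miR-223, was 836 ± 335 CPM in ALAS12-KO and 1214 ± 79.9 CPM in WT. The lymphoid signal, the 4 arms of miR-150 and miR-342, was 185 ± 78.1 CPM in ALAS12-KO and 257 ± 53.9 CPM in WT. Most of this sum was miR-342, at 157 CPM in ALAS12-KO and 192 CPM in WT, while miR-150 was at 27.8 and 64.9 CPM. Without ALAS12-KO replicate 1 the ALAS12-KO means were 5068, 988 and 219 CPM, in the same order of signals. Sums over chosen members were not tested.

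Genotypes were compared with edgeR's quasi-likelihood test on counts scaled by TMM, a factor per library that sets most miRNAs level, with Benjamini-Hochberg adjustment over all 450 miRNAs that passed the low-count filter. Of the 8 arms 7 passed it, and miR-150-3p did not. At an adjusted p under 0.05 it called 0 of these 7, with 0% called among all tested, and 1 of the 7, miR-150-5p, had an unadjusted p under 0.05. Of all tested miRNAs 18.7% did so in either direction and 8.44% as lower in ALAS12-KO. All 7 log2 fold changes were negative, where 44% of all tested miRNAs were. Their median was −0.22, against 0.058 over all tested. Without ALAS12-KO replicate 1, 5 of 7 were negative, against 48.1% of all tested, with a median of −0.049 against 0.026.

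The pan-leukocyte arms did not pass the test between the genotypes. mmu-miR-142a-3p stood at 1478, 3194, 5041 and 4182 CPM in ALAS12-KO replicates 1 to 4, and at 3740, 4143 and 4883 CPM in WT replicates 1 to 3. Of the ALAS12-KO libraries 1 was above all WT libraries, and 2 were below all of them. Its log2 fold change was −0.17 ± 0.27 (SE), with an edgeR adjusted p of 0.763. Without ALAS12-KO replicate 1 it was 0.026 ± 0.14, so the sign rested on that library. mmu-miR-142a-5p, the other arm of the hairpin, stood at 361, 830, 1043 and 916 CPM in ALAS12-KO and at 812, 927 and 1312 CPM in WT. The groups overlapped here as well. The log2 fold change was −0.22 ± 0.27 (edgeR adjusted p = 0.663), and −0.049 ± 0.17 without replicate 1.

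The myeloid mmu-miR-223-3p was lower in ALAS12-KO on the CPM scale in every library, without passing the test. It stood at 378, 781, 1087 and 1065 CPM in ALAS12-KO, and at 1111, 1238 and 1258 CPM in WT. The highest ALAS12-KO library was just under the lowest WT library, and 2 of the 7 tested arms, this one and miR-150-5p, were lower without overlap on this scale, against 15.3% of all tested miRNAs. With TMM scaling 0 of the 7 arms were without overlap, against 9.33% of all tested as lower, and miR-223-3p was at most 1037 TMM-scaled CPM in ALAS12-KO and at least 1024 in WT. The log2 fold change was −0.41 ± 0.25 (edgeR adjusted p = 0.378), and −0.23 ± 0.12 without ALAS12-KO replicate 1 (adjusted p = 0.315). mmu-miR-223-5p, the rare arm, was counted 39 to 198 times per ALAS12-KO library and 92 to 232 times per WT library. It stood at 2.96, 7.93, 11.6 and 11.8 CPM in ALAS12-KO and at 11.2, 10.6 and 11.9 CPM in WT. Replicates 3 and 4 of ALAS12-KO were within the WT range. Its log2 fold change was −0.26 ± 0.35 (edgeR adjusted p = 0.698), and −0.031 ± 0.19 without replicate 1.

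The lymphoid mmu-miR-150-5p had the largest difference of the 7 tested arms. It stood at 13.3, 40.5, 25.5 and 31.4 CPM in ALAS12-KO, and at 45.3, 59.9 and 88.6 CPM in WT. No ALAS12-KO library reached the lowest WT library on this scale. With TMM scaling ALAS12-KO replicate 2, at 46.1 TMM-scaled CPM, was above WT replicate 1, at 41.8, and the groups overlapped. The log2 fold change was −1.04 ± 0.36, a 0.486-fold level, with an unadjusted p of 0.0175 and an edgeR adjusted p of 0.22, which ranked 32nd of 450. The fold change kept its sign without ALAS12-KO replicate 1, at −0.88 ± 0.31 (edgeR unadjusted p = 0.0213, adjusted p = 0.162). It was 1 of 5 among the 7 tested arms that stayed negative then. Without WT replicate 3 the log2 fold change was −0.82 ± 0.39, and the unadjusted p was 0.0742. With no filter on low counts, so that 1302 miRNAs were tested, edgeR called it at an adjusted p of 0.0153, among 13 miRNAs called. Over the other alternatives its adjusted p ran from 0.0946 to 0.461. The other arm, mmu-miR-150-3p, was at the edge of detection, with 0, 2, 3 and 4 reads in ALAS12-KO and 3, 7 and 3 reads in WT. The 0 of ALAS12-KO replicate 1 allows a level of up to 0.228 CPM (3 reads). Pooled over libraries it was 0.159 CPM in ALAS12-KO (exact 95% Poisson interval 0.0725 to 0.301, counting error only) and 0.284 CPM in WT (0.151 to 0.486), and the intervals overlapped.

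miR-342, the second lymphoid hairpin, did not pass the test in either arm, and whether its change differed from that of miR-150-5p was not tested. mmu-miR-342-3p stood at 66.7, 130, 193 and 228 CPM in ALAS12-KO, and at 156, 190 and 220 CPM in WT. Of the ALAS12-KO libraries 2 were below WT, 1 within it and 1 above it. The log2 fold change was −0.16 ± 0.31 (edgeR adjusted p = 0.79), and 0.027 ± 0.20 without replicate 1. mmu-miR-342-5p, with 24 to 76 reads per library, stood at 1.82, 2.38, 2.81 and 3.85 CPM in ALAS12-KO and at 3.43, 3.46 and 3.76 CPM in WT. Replicate 4 of ALAS12-KO was the highest of all 7 libraries, and the other ALAS12-KO libraries were below WT. Its log2 fold change was −0.22 ± 0.26 (edgeR adjusted p = 0.644), and −0.16 ± 0.26 without replicate 1.

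**Figure D2:**
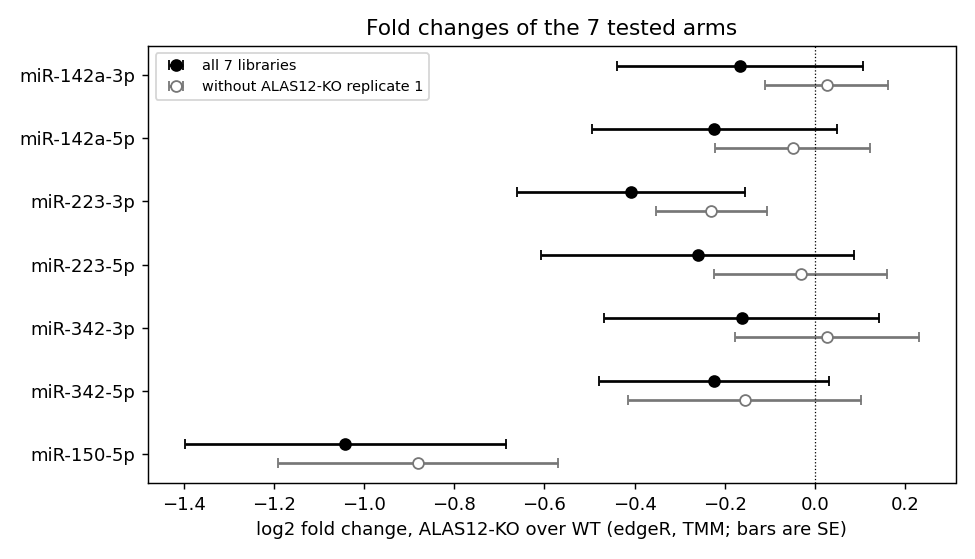
Log2 fold change of ALAS12-KO over WT (horizontal axis) for the 7 tested arms, with SE bars, from all 7 libraries (filled) and without ALAS12-KO replicate 1 (open). miR-150-5p is at −1.04 and −0.88, while the open points of the other arms lie between −0.23 and 0.027.

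Whether the blood-cell signals kept their proportions was asked with ratios inside each library, which need no scaling. Each dominant myeloid or lymphoid arm was set against miR-142a-3p, and a two-sided exact permutation test over all 35 assignments of the libraries to the genotypes was applied to the log2 ratios, adjusted over the 3 ratios. Its smallest possible p is 0.0286, which adjusts to 0.0857 where 1 ratio alone reaches it.

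Per 100 reads of miR-142a-3p, the libraries held 25.6, 24.4, 21.6 and 25.5 reads of miR-223-3p in ALAS12-KO, and 29.7, 29.9 and 25.8 in WT. All 4 ALAS12-KO libraries were below all 3 WT libraries, by a small margin between 25.6 in ALAS12-KO replicate 1 and 25.8 in WT replicate 3. The log2 difference was −0.23 (SD 0.12 in each group), with an exact permutation p of 0.0286, the smallest possible, and 0.0857 after adjustment. It was −0.26 without ALAS12-KO replicate 1, where the smallest possible p is 0.1 and the exact permutation p was 0.1. With both arms of each hairpin summed, the difference was −0.22 and the exact permutation p 0.114.

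For miR-150-5p the ratio was 0.899, 1.27, 0.505 and 0.752 reads per 100 of miR-142a-3p in ALAS12-KO, and 1.21, 1.45 and 1.81 in WT. Only ALAS12-KO replicate 2 reached the WT range, and replicate 3, the ALAS12-KO library with the most miR-142a-3p, had the lowest ratio. The log2 difference was −0.86 (SD 0.55 in ALAS12-KO, 0.29 in WT; exact permutation p = 0.0857, adjusted 0.129). It was −0.91 without ALAS12-KO replicate 1 (exact permutation p = 0.2). For miR-342-3p the ratio was 4.52, 4.07, 3.83 and 5.46 in ALAS12-KO, and 4.18, 4.60 and 4.50 in WT. The ALAS12-KO libraries lay on both sides of WT, with a log2 difference of 0.0020 (SD 0.22 in ALAS12-KO, 0.07 in WT; exact permutation p = 0.971). In ALAS12-KO replicate 1, where all 4 dominant arms were at their lowest, all 3 ratios to miR-142a-3p lay within the range of the other libraries.

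**Figure D3:**
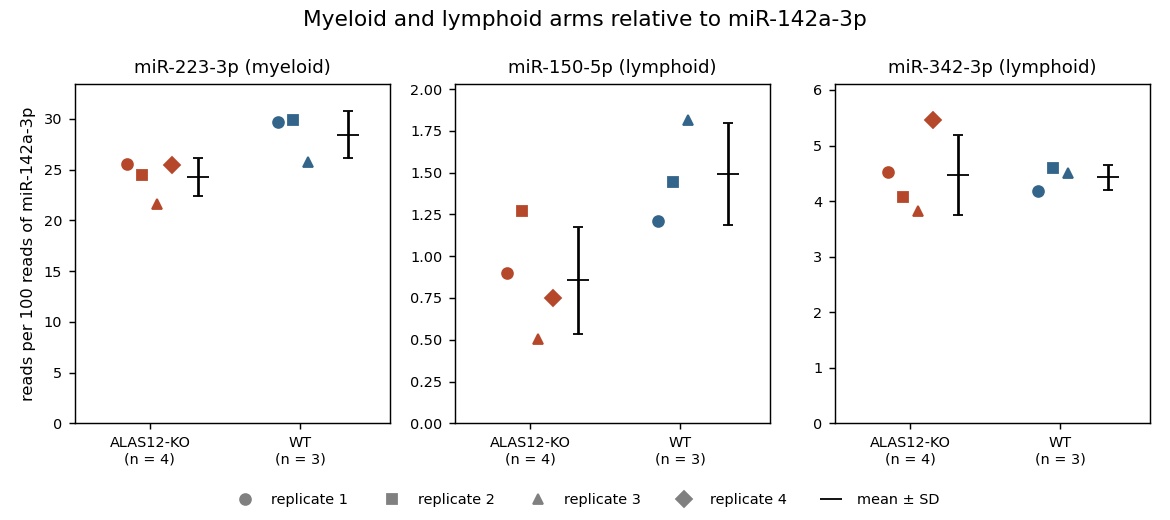
Reads of miR-223-3p, miR-150-5p and miR-342-3p per 100 reads of miR-142a-3p (vertical axes, linear, from 0), by genotype, with 1 point per library and the mean ± SD beside the points. The miR-223-3p ratio is 21.6 to 25.6 in ALAS12-KO and 25.8 to 29.9 in WT, the miR-150-5p ratio overlaps in 1 library, and the miR-342-3p ratio overlaps widely.

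The balance of the arms is set when a hairpin is processed and loaded, and it differed far more between hairpins than between genotypes. For miR-142a there were 24.5, 26.0, 20.7 and 21.9 reads of the 5p arm per 100 of the 3p arm in ALAS12-KO, and 21.7, 22.4 and 26.9 in WT. For miR-223 there were 0.793, 1.02, 1.07 and 1.11 in ALAS12-KO, and 1.01, 0.855 and 0.952 in WT. For miR-342 there were 2.79, 1.87, 1.47 and 1.70 in ALAS12-KO, and 2.22, 1.83 and 1.74 in WT. The genotypes overlapped for all 3 hairpins. The log2 differences were −0.023 ± 0.15, 0.079 ± 0.17 and −0.015 ± 0.24 (SE), with limma adjusted p of 0.961, 0.903 and 0.961 over 130 hairpins. limma called 0 of the 3, with 0% called among the 130 and 5.38% at an unadjusted p under 0.05. The 2.79 of ALAS12-KO replicate 1 rests on 24 reads of miR-342-5p. miR-150 was not tested, since its 3p arm was too rare.

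**Figure D4:**
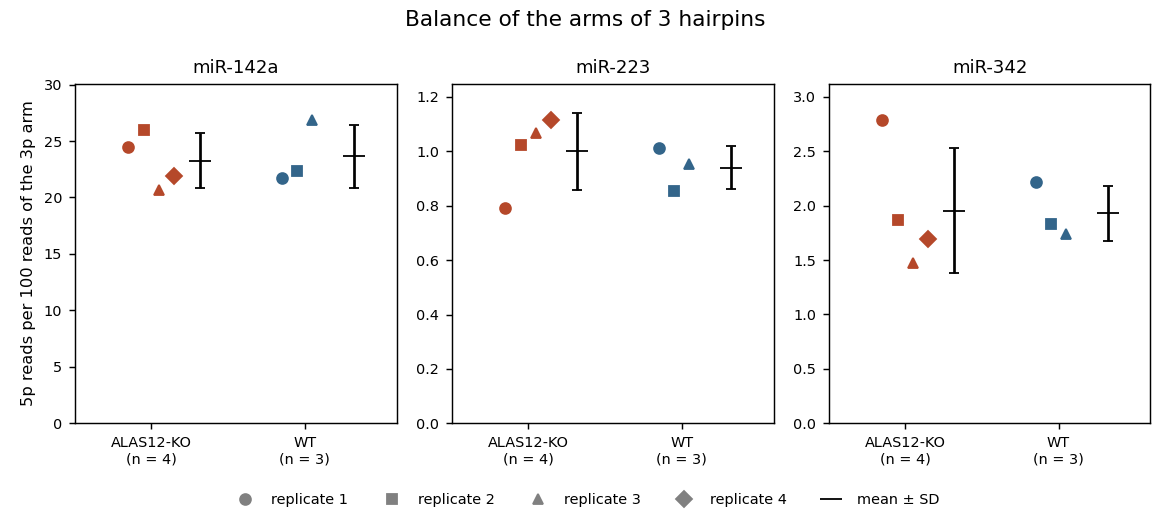
Reads of the 5p arm per 100 reads of the 3p arm (vertical axes, linear, from 0) for miR-142a, miR-223 and miR-342, by genotype, with 1 point per library and the mean ± SD beside the points. miR-142a lies at 20.7 to 26.9 in all 7 libraries, and the genotypes overlap in each panel.

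Other miRNAs of leukocytes were taken from a list of 6, made up of 3 arms of miR-146a and miR-146b, miR-155-5p, miR-181a-5p and miR-181b-5p. miR-146a and miR-155 are induced in activated immune cells, and miR-181 is abundant in developing lymphocytes but not limited to them. All 6 were tested, 0 passed the adjusted threshold and 3 had a negative log2 fold change, with a median of −0.18. Their summed level was 727 to 2730 CPM in ALAS12-KO (1592 to 2730 without replicate 1) and 2362 to 3274 CPM in WT, most of it miR-146a-5p. That miRNA had a log2 fold change of −0.52 ± 0.29 (edgeR adjusted p = 0.344), and −0.32 ± 0.16 without ALAS12-KO replicate 1 (adjusted p = 0.29). miR-155-5p had −0.36 ± 0.26 (edgeR adjusted p = 0.456), and −0.20 ± 0.18 without that library (adjusted p = 0.593). All 6 were at their lowest in ALAS12-KO replicate 1, and the share of all miRNAs lowest there was not counted.

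Markers of the other cells of the liver were read in the same libraries. Mesenchymal and stellate markers (5 of 5 tested) summed to 1564 to 5730 CPM in ALAS12-KO (from 3516 without replicate 1) and 4165 to 6971 CPM in WT, most of it miR-143-3p. Of these 5, 4 had a negative log2 fold change, while miR-214-3p had 0.39 ± 0.53 (edgeR adjusted p = 0.698). Endothelial markers (2 of 2 tested) summed to 10959 to 36485 CPM in ALAS12-KO and 35562 to 52472 CPM in WT. They overlapped in CPM but not with TMM scaling, at up to 32965 TMM-scaled CPM in ALAS12-KO and from 34965 in WT. Cholangiocyte markers, of bile duct cells (5 of 5 tested), summed to 54.4 to 105 CPM in ALAS12-KO (from 75.9 without replicate 1) and 139 to 243 CPM in WT, without overlap on either scale. Of that list miR-200a-3p, miR-200b-3p and miR-429-3p had log2 fold changes of −1.31, −1.30 and −1.27 (edgeR adjusted p of 0.113, 0.115 and 0.113), while miR-141-3p and miR-200c-3p had −0.099 and −0.068 (adjusted p of 0.787 and 0.921). Red cell markers (4 of 4 tested) summed to 9.11 to 20.3 CPM in ALAS12-KO (from 13.7 without replicate 1) and 20.5 to 27.2 CPM in WT. With TMM scaling they overlapped, at up to 19.7 TMM-scaled CPM in ALAS12-KO and from 18.9 in WT. Hepatocyte markers (7 of 7 tested), led by miR-122-5p, summed to 606752 to 693313 CPM in ALAS12-KO and 633861 to 661952 CPM in WT, so they held most miRNA reads in every library. Of these 7, 0 had a negative log2 fold change and 0 passed the adjusted threshold. Their median log2 fold change was 0.34, against 0.058 over all tested. No marker of any of these lists was at 0 in any library, and the part of the markers in the values of the 8 arms was not tested.

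**Figure D5:**
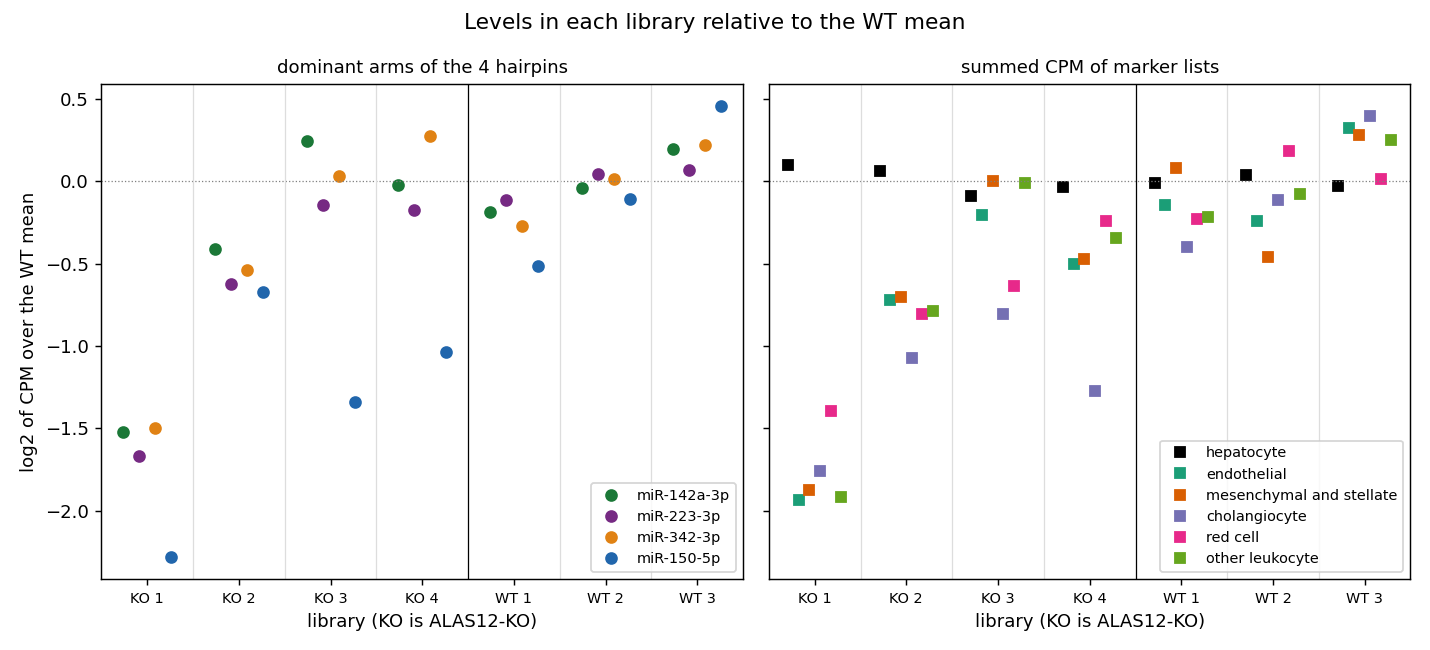
Log2 of the CPM of each library over the mean of the WT libraries (vertical axis) for the 4 dominant arms (left) and for the summed markers of 6 cell groups (right), 1 column per library, with ALAS12-KO shortened to KO. In ALAS12-KO replicate 1 the 4 arms lie between −2.28 and −1.50 and every marker group except hepatocytes between −1.94 and −1.40, and miR-150-5p lies below the other 3 arms in all 4 ALAS12-KO libraries, at −2.28, −0.67, −1.34 and −1.04.

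The 4 dominant arms did not all follow the same profile over the 7 libraries. Likeness was measured as the root mean square difference of centred log2 TMM-scaled CPM over the 7 libraries, against each of the 221 other miRNAs with a mean of at least 10 CPM. These distances share the libraries and are a description, and a scaling factor per library cancels out of them. Nearest to miR-142a-3p were miR-142a-5p (0.13), miR-23a-3p (0.14) and miR-223-3p (0.15), against a median of 0.54 over all 221. For miR-223-3p the nearest were miR-503-5p (0.10), miR-155-5p (0.14) and miR-142a-3p (0.15), against a median of 0.55. For miR-342-3p they were miR-142a-3p (0.15), miR-223-3p (0.18) and miR-99b-5p (0.18), against a median of 0.55. Among the 221, miR-342-3p was 4th nearest to miR-142a-3p and 6th nearest to miR-223-3p. These ranks depended on ALAS12-KO replicate 1. Without it the median distance was 0.28 for miR-142a-3p, and miR-223-3p and miR-342-3p ranked 13th and 14th from it, at 0.16 each. The nearest to miR-142a-3p were then miR-141-3p (0.13), miR-142a-5p (0.14) and miR-331-3p (0.14), and those to miR-223-3p were miR-24-3p (0.086), let-7i-3p (0.088) and let-7i-5p (0.093). For miR-342-3p they were let-7e-5p (0.14), miR-142a-3p (0.16) and miR-532-5p (0.18).

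miR-150-5p was farther from the other 3 dominant arms than these were from each other. By distance from it, miR-223-3p was 21st, miR-142a-3p 35th and miR-342-3p 36th, at 0.49, 0.58 and 0.58. In the other direction, miR-150-5p ranked 79th from miR-223-3p, 148th from miR-142a-3p and 139th from miR-342-3p. Nearest to miR-150-5p were miR-200a-3p (0.30), miR-429-3p (0.30) and miR-200b-3p (0.37), the 3 miRNAs of 1 epithelial cluster, against a median of 0.81. Of the other cholangiocyte markers miR-141-3p was not among the nearest, and miR-200c-3p was under 10 CPM and not compared. miR-200a-3p stood at 23.6, 45.1, 47.4 and 33.6 CPM in ALAS12-KO and at 75.9, 95.03 and 143 CPM in WT. In CPM, both miR-150-5p and miR-200a-3p were below WT in all 4 ALAS12-KO libraries and highest in WT replicate 3. With TMM scaling the genotypes overlapped for miR-150-5p but not for miR-200a-3p. Without ALAS12-KO replicate 1 the nearest to miR-150-5p were miR-200a-3p (0.30), miR-429-3p (0.32) and miR-5099 (0.37), against a median of 0.61, and miR-223-3p, miR-142a-3p and miR-342-3p ranked 44th, 117th and 121st.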

How the data were processed

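Per the labels' protocols, small RNAs were made into libraries from total RNA of hepatocyte-enriched liver cells with control RNAs added, which were not analysed here. Each library has 1 deposited table of raw read counts per mature miRNA. Cutadapt, limma, mm10 and hg38 are named in the submitters' processing notes, without roles. For the aligner, the counter and reads that match several miRNAs, the sources used here give nothing. The 5 summary entries of each library were dropped. Reads in no miRNA were 50.9% to 73.7% of all reads and unaligned reads 4.54% to 8.00%. One CPM stood for 7.72 to 22.0 reads. No pair within a genotype looked like 1 library deposited again (chi-square over degrees of freedom at least 112).

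Levels are CPM of summed miRNA reads. Genotypes were compared with edgeR 4.0.16 in R 4.3.3 (robust quasi-likelihood fit, TMM, filterByExpr with a minimum count of 10, Benjamini-Hochberg threshold 0.05). Arm ratios were fitted with limma 3.58.1 over 130 hairpins, with 0.5 added to each arm. The tests were checked on simulated data. Alternatives were DESeq2 1.42.0 and limma-voom, 3 more scalings, 2 more filters, dropping single libraries, and the replicate number as a block. The arms, the marker lists, the tests and the rule for naming further miRNAs (the 3 nearest profiles to each dominant arm, and miR-142b) were chosen with earlier results of these data known. Profile distances without ALAS12-KO replicate 1 and TMM-scaled marker sums were added after seeing the data. Levels are relative to all miRNAs in a library, so a change shared by all would not show.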

Additional observations from a re-analysis of the deposited data

How the results depend on the processing

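With all 7 libraries, every scaling, tool and filter tried gave the tested arms a negative log2 fold change (6 arms under the strict filter, which dropped miR-342-5p), and none was called except miR-150-5p without a low-count filter (−1.07, adjusted p = 0.0153). Library totals moved the median over all tested miRNAs by −0.18 on the log2 scale, to −0.12, and that of the 7 arms to −0.37. They also moved the share of higher miRNAs at an unadjusted p under 0.05 to 27.3% (upper-quartile factors 32.9%), against 54.8% with TMM. edgeR called 0 of 450 miRNAs (84 at an unadjusted p under 0.05), 2 with library totals, 13 without a filter, and 0 to 1 with a library left out (1 without ALAS12-KO replicate 2). DESeq2 called 21 and limma-voom 0, with 90 at an unadjusted p under 0.05. DESeq2 gave miR-150-5p −1.06 with an adjusted p of 0.0946. Causes of these differences were not tested. Leaving out each library gave log2 fold changes of −0.38 to 0.026 for miR-142a-3p, −0.56 to −0.23 for miR-223-3p, −1.38 to −0.82 for miR-150-5p and −0.41 to 0.027 for miR-342-3p. The ratio differences ran over −0.30 to −0.17 for miR-223-3p, −1.07 to −0.63 for miR-150-5p and −0.10 to 0.072 for miR-342-3p, and the arm ratio differences over −0.082 to 0.072 for miR-142a, 0.013 to 0.19 for miR-223 and −0.20 to 0.11 for miR-342. With 5 added to each arm the miR-342 arm ratio difference was 0.029. With both arms at 10 CPM or more, miR-223 and miR-342 gave no arm ratio. Without 1 library the exact permutation test could not pass the threshold (smallest p 0.0667 or 0.1).

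Replicate numbers are shared by the genotypes but not described as pairs. Deviations of same-numbered libraries correlated at −0.028, −0.47 and 0.0066, and no library of replicates 1 to 3 correlated best with its own number. The highest correlation was 0.53, between WT replicate 3 and ALAS12-KO replicate 2. These correlations cannot tell whether same-numbered libraries were handled together, since other differences between libraries also enter them. With a replicate block over replicates 1 to 3, edgeR called 0 miRNAs (54 at an unadjusted p under 0.05), miR-150-5p had −1.20 (adjusted p = 0.35), miR-223-3p −0.63 (unadjusted p = 0.0411, adjusted p = 0.35), miR-342-3p −0.48 and miR-142a-3p −0.38. That fit also leaves out ALAS12-KO replicate 4, whose omission without the block gave −1.12, −0.56, −0.41 and −0.27 for these arms. With the block the arm ratio difference was 0.0043 for miR-142a and 0.039 for miR-342, and the miR-342-3p ratio difference was −0.10. None of these was called. Rare arms are limited by depth, with 0 to 7 reads of miR-150-3p per library.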

Other observations

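The miR-181 members of the leukocyte list varied most among the ALAS12-KO libraries. miR-181a-5p stood at 12.8, 17.4, 107 and 60.6 CPM in ALAS12-KO replicates 1 to 4, and at 35.8, 28.4 and 34.8 CPM in WT. Replicates 3 and 4 of ALAS12-KO were above WT and replicates 1 and 2 below it. miR-181b-5p had the same order among the ALAS12-KO libraries, at 4.63, 6.94, 31.4 and 15.3 CPM in ALAS12-KO and 9.49, 8.38 and 9.59 CPM in WT. Their log2 fold changes were 0.65 ± 0.58 and 0.75 ± 0.50, with edgeR adjusted p of 0.542 and 0.395. Without ALAS12-KO replicate 1 they were 0.93 ± 0.48 and 1.00 ± 0.41 (edgeR adjusted p of 0.303 and 0.192). Replicates 3 and 4 were also the ALAS12-KO libraries with the lowest ratio of miR-150-5p to miR-142a-3p. These values were singled out after they were seen.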
